A study of Mus musculus with 16 samples.

Results

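Guanylate-binding proteins (GBPs) and immunity-related GTPases (IRGs) are large GTP-hydrolysing proteins whose genes are switched on by interferons. The 9 described here are *Gbp2*, *Gbp3*, *Gbp5* and *Gbp7* of the GBP family and *Igtp*, *Irgm1*, *Irgm2*, *Iigp1* and *Tgtp2* of the IRG family. They were taken by gene symbol from the table of counts, and make up 9 of its 24421 genes. All 9 passed the filter on low counts that left 9642 genes for testing.

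The samples come from subcutaneous MC38-Ova tumours, a murine colon adenocarcinoma line that expresses ovalbumin, grown in adult C57BL/6 mice carrying the photoconvertible protein Kaede. Violet light turned the cells in the tumour from green to red, so that at sorting a Kaede-green cell had entered since labelling and a Kaede-red cell had stayed. Live CD45+ TER119- CD11b+ NK1.1- cells, described in the labels as macrophages, were sorted as Kaede-green or Kaede-red at 24h or 72h after photoconversion, and total RNA was sequenced from 4 libraries of each of the 4 groups. All 16 libraries share the tissue, the genotype, the batch and a control label that names no agent.

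Interferon-γ is a strong inducer of these genes in macrophages, and type I interferon also induces them. Effector IRGs and GBPs coat the vacuoles that enclose intracellular pathogens and break their membranes, while the regulatory IRGs hold the effectors inactive on the membranes of the cell itself. GBPs also take part in the activation of inflammasomes, and the loading of both families onto vacuoles needs the ATG conjugation proteins of the autophagy pathway.

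The GBP genes described here lie close together in the mouse genome. *Gbp5*, *Gbp7*, *Gbp3* and *Gbp2* stand in this order on the same strand within 144.0 kb of chromosome 3. *Irgm1*, *Tgtp2*, *Igtp* and *Irgm2* spread over 9360.8 kb of chromosome 11, and *Iigp1* lies apart from them on a chromosome of its own.

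RefSeq promoter entries, each running from 250 bases before to 50 bases after a RefSeq transcription start, matched 8 of the 9 genes by symbol. This start can lie inside the gene as GENCODE, the annotation used for gene positions, draws it. For *Irgm2* it is at 58214977, where the GENCODE gene begins at 58199618, and for *Gbp5* at 142496934 against 142493978. *Iigp1* has no entry. The entries were searched on both strands for the core of the interferon-stimulated response element (GAAANNGAA) and for the core of the gamma-activated site (TTCNNNGAA, which reads alike on both strands). There are 9 entries for these 8 genes, as *Gbp3* has a pair. GAAANNGAA was found in 8 of the 8 genes (8 of the 9 entries) and in 8.56% of 32851 mouse promoter entries. TTCNNNGAA was found in 5 of the 8 genes (5 of the 9 entries; *Gbp5*, *Gbp7*, *Igtp*, *Irgm2* and *Tgtp2*) and in 8.3% of all promoters. Those 5 hold both patterns, as do 1.07% of all promoters, and in none do the patterns overlap. In *Igtp*, *Irgm2* and *Tgtp2* the gap between them is 2 bases in each case, whereas in *Gbp5* it is 72 and 103 bases and in *Gbp7* 45 and 26 bases. The 5 promoters below are shown because they belong to the genes whose levels differed most between groups and to *Tgtp2*, whose level differed least over time in Kaede-red cells among the genes with both patterns. Capitals mark the matches to either pattern, on either strand, and in *Irgm1* the capitals cover a pair of overlapping GAAANNGAA matches. Sequences are from RefSeq, build GRCm38.p6, read 5′ to 3′ on the strand of the gene: *Gbp2* chr3:142620413-142620712 (+), *Gbp5* chr3:142496684-142496983 (+), *Irgm1* chr11:48871371-48871670 (-), *Irgm2* chr11:58214727-58215026 (+) and *Tgtp2* chr11:49064163-49064462 (-). A match describes the letters only. The genes were picked as interferon-inducible, so the shares with a match are no test of the differences below.
Gbp2: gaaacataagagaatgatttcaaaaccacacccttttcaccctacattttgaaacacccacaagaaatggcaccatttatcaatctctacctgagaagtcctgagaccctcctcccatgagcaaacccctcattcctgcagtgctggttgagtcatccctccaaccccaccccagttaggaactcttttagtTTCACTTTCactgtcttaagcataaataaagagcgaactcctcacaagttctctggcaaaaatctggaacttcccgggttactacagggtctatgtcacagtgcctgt
Gbp5: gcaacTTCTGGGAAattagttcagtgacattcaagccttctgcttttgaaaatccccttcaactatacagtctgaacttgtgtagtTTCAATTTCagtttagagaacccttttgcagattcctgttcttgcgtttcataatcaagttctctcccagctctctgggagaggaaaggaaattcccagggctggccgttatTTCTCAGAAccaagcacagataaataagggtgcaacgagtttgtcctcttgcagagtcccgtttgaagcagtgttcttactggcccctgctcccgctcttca
Irgm1: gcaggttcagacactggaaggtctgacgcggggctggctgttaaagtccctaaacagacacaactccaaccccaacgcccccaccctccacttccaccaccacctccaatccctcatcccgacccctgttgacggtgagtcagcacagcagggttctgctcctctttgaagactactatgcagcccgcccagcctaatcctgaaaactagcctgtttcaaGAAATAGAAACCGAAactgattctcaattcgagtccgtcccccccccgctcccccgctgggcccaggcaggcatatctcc
Irgm2: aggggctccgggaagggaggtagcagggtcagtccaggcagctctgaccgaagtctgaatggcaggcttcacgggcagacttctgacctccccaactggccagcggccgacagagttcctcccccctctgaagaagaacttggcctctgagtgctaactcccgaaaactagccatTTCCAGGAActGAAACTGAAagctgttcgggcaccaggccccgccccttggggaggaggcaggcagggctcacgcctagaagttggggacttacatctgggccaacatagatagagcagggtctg
Tgtp2: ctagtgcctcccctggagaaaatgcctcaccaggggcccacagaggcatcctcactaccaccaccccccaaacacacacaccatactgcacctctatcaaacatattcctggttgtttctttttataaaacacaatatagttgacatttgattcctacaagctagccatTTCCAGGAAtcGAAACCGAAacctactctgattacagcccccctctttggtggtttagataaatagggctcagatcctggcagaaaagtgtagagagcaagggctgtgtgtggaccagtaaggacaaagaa

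**Figure D1:**
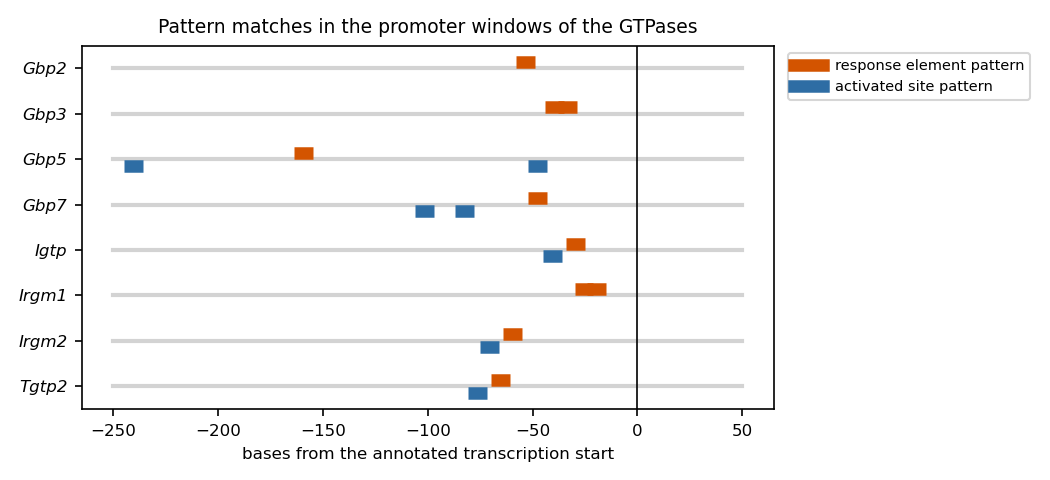
Positions of GAAANNGAA and TTCNNNGAA in the RefSeq promoters of 8 interferon-inducible GTPase genes. Distances are in bases from the RefSeq transcription start of the entry.

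The map of pattern positions shows the 3 promoters in which the patterns sit side by side, those of *Igtp*, *Irgm2* and *Tgtp2*. *Gbp2*, *Gbp3* and *Irgm1* carry GAAANNGAA alone within these windows.

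Levels are given as CPM, the counts of a gene scaled to the size of its library, here after TMM, a factor that aligns the bulk of the genes between libraries. The GTPases together took 748 to 1729 counts in each Kaede-green 24h library, 1518 to 4882 in Kaede-red 24h, 1271 to 1684 in Kaede-green 72h and 3066 to 25415 in Kaede-red 72h. The TMM factors ran from 0.318 to 3.84, and the ribosomal RNA gene *Rn45s* took 55.8% to 93.4% of the counts of a library. Markers of myeloid cells were present in every library (10 of 10 tested, summed means 1948, 1032, 1511 and 1541 CPM in Kaede-green 24h, Kaede-red 24h, Kaede-green 72h and Kaede-red 72h), with *Lyz2* the highest. In sorted bulk samples, fewer cells that carry a transcript and less of it in each cell cannot be told apart. The study describes the samples of these libraries as tumours from independent mice, and whether a Kaede-green and a Kaede-red library share a tumour is not given in the sources used here.

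Levels of different genes were compared per kilobase of exon. *Gbp2* had the highest mean in every group (38.0, 22.6, 35.4 and 49.4 CPM per kb in Kaede-green 24h, Kaede-red 24h, Kaede-green 72h and Kaede-red 72h) except Kaede-red 24h, where *Tgtp2* stood above it at 25.3. *Tgtp2* (33.9, 25.3, 29.2 and 28.3), *Igtp* (22.8, 17.98, 19.3 and 24.5) and *Gbp3* (15.98, 11.1, 18.6 and 16.8) followed. The other 5 genes lay lower, from 2.78 for *Gbp5* in Kaede-red 24h to 9.88 for *Irgm2* in Kaede-red 72h. Among them *Irgm2* and *Irgm1* did not differ beyond the spread of their libraries in any group, and neither did *Gbp5* and *Gbp7*.

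**Figure D2:**
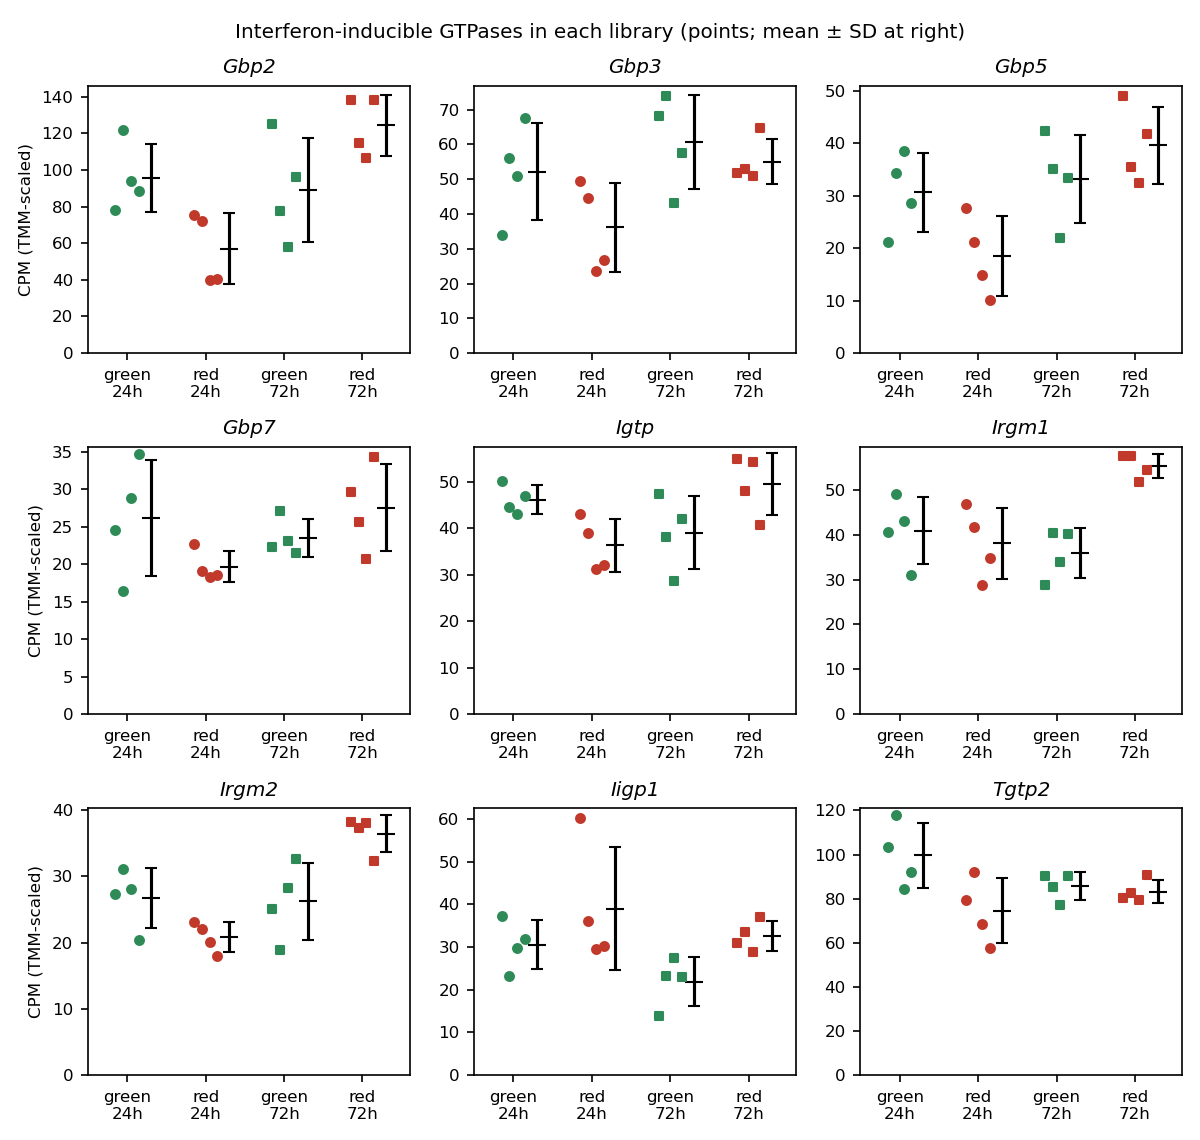
Level of each of the 9 GTPases in each library, in CPM. Bars give the mean and standard deviation of the 4 libraries of a group.

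The panels by library show a split inside Kaede-red 24h. The summed level of the 9 genes was 428 and 388 CPM in replicates 1 and 2 of that group but 275 and 269 in replicates 3 and 4. The other groups were tighter, at 417 to 495 in Kaede-green 24h, 342 to 463 in Kaede-green 72h and 463 to 534 in Kaede-red 72h. Replicates 3 and 4 of Kaede-red 24h also had more of their counts in *Rn45s* (83.1% and 84.9%, against 66.2% and 68.2% in replicates 1 and 2). Their summed levels of fibroblast markers (37.7 and 38.5 CPM, against 19.97 and 20.9) and erythroid markers (11.04 and 9.93, against 1.93 and 2.31) were higher too, and that of myeloid markers was lower (918 and 768, against 1267 and 1174).

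At 24h *Gbp2* was lower in Kaede-red than in Kaede-green cells under TMM scaling, though not without a TMM factor (0.14). *Gbp2*, which is recruited to pathogen vacuoles and bacterial membranes, measured 78.0, 122, 94.2 and 88.6 CPM in the Kaede-green libraries and 75.2, 72.0, 39.8 and 40.6 in the Kaede-red libraries. Every Kaede-red library lay below every Kaede-green library, although replicate 1 of each group differed little. *Gbp2* fell by 0.75 log2 (standard error 0.23, edgeR quasi-likelihood test, adjusted p = 0.0452) and was the only GTPase of the 9 called lower, at adjusted p under 0.05. None was called higher. In this comparison 3.2% of the tested genes were called higher and 4.3% lower.

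The call of *Gbp2* at 24h was near the threshold. It was lost without Kaede-green 24h replicate 2 (-0.60) or 3 (-0.77), Kaede-red 24h replicate 3 (-0.62) or 4 (-0.61), Kaede-green 72h replicate 4 (-0.74), or Kaede-red 72h replicate 1 (-0.75), 2 (-0.75) or 3 (-0.74). Adjusted p ran from 0.00761 to 0.627 over all alternatives, and the call was also lost with no filter (-0.65) and with at least 10 counts asked of every library (-0.62).

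*Gbp5*, which promotes inflammasome assembly, measured 21.2, 34.3, 38.5 and 28.6 CPM in Kaede-green 24h and 27.6, 21.2, 14.8 and 10.1 in Kaede-red 24h. Its groups overlapped through replicate 1 of each, which were the lowest green and the highest red library. Its log2 difference of -0.75 (standard error 0.26) had an adjusted p of 0.0737. *Gbp5* was called without Kaede-green 24h replicate 1 (-0.88, adjusted p = 0.0496) or Kaede-red 24h replicate 1 (-1.01, adjusted p = 0.0204), and with the replicate block (-0.82, adjusted p = 0.0274), within a range over all alternatives of 0.0204 to 0.683. With the *Rn45s* share as covariate both *Gbp5* (-1.32, adjusted p = 0.0268) and *Gbp2* (-1.34, adjusted p = 0.00761) were called lower. The other GBPs pointed the same way, *Gbp3* at -0.53 and *Gbp7*, linked to oxidase and autophagy proteins, at -0.41.

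Among the IRGs the effector *Tgtp2* stood at -0.42, and the regulators *Irgm2* and *Igtp* at -0.36 and -0.34. *Irgm1*, the regulator tied to autophagy and lysosomes, stood at -0.10, and the effector *Iigp1* at 0.36, the only positive value. Each *Igtp* value in Kaede-red 24h (31.1 to 43.09 CPM) was also below each in Kaede-green 24h (43.13 to 50.1). Thus 2 of the 9 GTPases, *Gbp2* and *Igtp*, did not overlap in this direction, as was true of 5.44% of the tested genes.

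Scaling bears on the signs at 24h. The median of the 9 was -0.41 against 0.05 for all tested genes, and 8 of the 9 were negative, but with library sizes outside *Rn45s* and no TMM factor all 9 were positive and 5 of them called higher, beside 4570 of the 9642 tested genes. That scaling moved the median of all genes to 0.93. Relative to the median of all genes, the GTPases lay at -0.46 under TMM, -0.46 without TMM and -0.47 under the RLE factors, with 1 of 9 above that median each time.

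**Figure D3:**
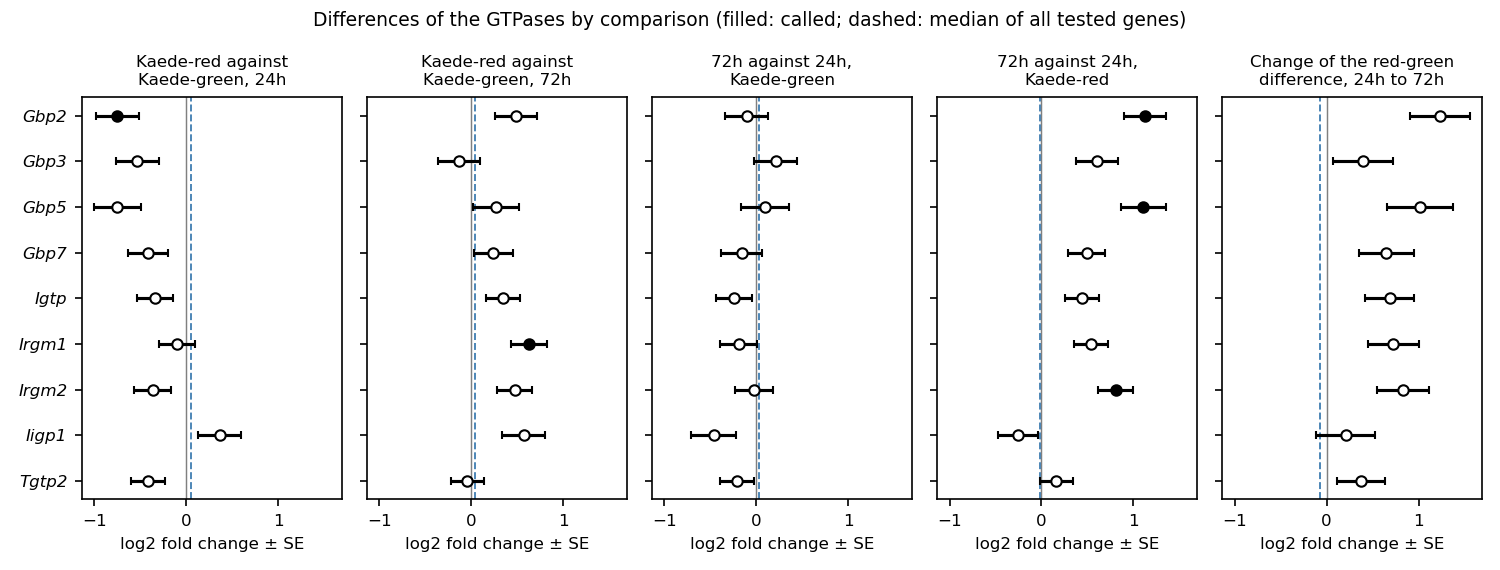
Log2 fold change and standard error of the 9 GTPases in 5 comparisons under TMM scaling, filled where adjusted p is under 0.05 and with a dashed line at the median of all genes. Without a TMM factor the 8 negative values at 24h turn positive, and so do those of *Gbp3* and *Tgtp2* at 72h and of *Gbp2* and *Irgm2* in Kaede-green cells, while *Iigp1* turns negative in the last panel.

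The panels for 24h and 72h show most genes on opposite sides of the dashed line. *Iigp1* lies to the right of it at both times, and *Gbp3* and *Tgtp2* lie to the left. Kaede-red cells over time give the widest spread of values.

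Other interferon-inducible GTPases, outside the 9, were counted at 24h as well. Of 20 tested, 0 were called higher and 5 lower (median -0.32), under TMM scaling: *Mx2* (-1.17, adjusted p = 9.37e-04), *Ifi47* (-1.05, adjusted p = 0.00176), *9930111J21Rik2* (-0.89), *9930111J21Rik1* (-0.80) and *Mx1* (-0.68). The *Mx1* call was lost without Kaede-red 24h replicate 3 (-0.59), with no filter (-0.59) and with the *Rn45s* share as covariate (-0.84), and without a TMM factor *Mx1* (0.20) and *9930111J21Rik1* (0.073) turn positive while *Mx2* (-0.29), *Ifi47* (-0.12) and *9930111J21Rik2* (-0.022) lose their calls.

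Genes that act with the GTPases make up the remaining lists. Of 24 other targets of interferon-γ, 0 were called higher and 2 lower, *Upp1* (-1.59) and the chemokine *Cxcl10* (-1.02). Of 24 antiviral genes of type I interferon, 1 was called higher and 4 lower, with *Isg15* at -1.01 and *Cmpk2* at -0.97. Of 23 genes of interferon receptors and signalling, 0 were called higher and 2 lower, the inhibitor *Socs1* (-1.02) and *Nlrc5* (-0.65). *Socs1* was lost without Kaede-green 24h replicate 1 (-0.89) or 2 (-0.80), Kaede-red 24h replicate 1 (-1.10), 2 (-1.13), 3 (-0.94) or 4 (-0.90), or Kaede-red 72h replicate 1 (-1.02), 2 (-1.02) or 3 (-1.01). *Nlrc5* held only without Kaede-green 72h replicate 1 or 2, and in the other 14 fits it ran from -0.70 to -0.55. Without a TMM factor *Nlrc5* turned positive (0.23) and *Socs1* was not called (-0.10); neither was called with no filter or with at least 10 counts in every library, and *Nlrc5* held in only 3 of 9 other settings, lost also with only the groups compared (-0.68), the replicate block (-0.65) and the *Rn45s* share as covariate (-0.58). Inflammasome partners of the GBPs gave 0 higher and 4 lower of 8, led by *Il18* (-1.79) and *Casp1* (-1.27). The calls of *Il1b* (-0.98) and *Casp4* (-0.75) were lost without a TMM factor (-0.091 and 0.13). They were also lost with the *Rn45s* share as covariate (-0.84 and -0.76). In all, the call of *Casp4* held in 6 of 9 other settings and in 13 of 16 fits with a library left out. The ATG conjugation partners gave 1 higher, the cargo receptor *Sqstm1* (0.86), and 0 lower of 10. Without a TMM factor the calls of *Cxcl10* (-0.12), *Isg15* (-0.12), *Cmpk2* (-0.077) and *Casp1* (-0.37) were lost, and with the *Rn45s* share as covariate those of *Isg15* (-0.85), *Casp1* (-0.95) and *Sqstm1* (0.87).

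At 72h *Irgm1* was higher in Kaede-red than in Kaede-green cells. It measured 28.8, 40.5, 34.0 and 40.2 CPM in the Kaede-green libraries and 57.6, 57.7, 51.9 and 54.5 in the Kaede-red libraries. All 4 Kaede-red libraries were above all 4 Kaede-green libraries, and in fact above each of the other 12 libraries. *Irgm1* rose by 0.63 log2 (standard error 0.19, adjusted p = 0.0222) and was the only GTPase of the 9 called higher, with 0 called lower. Of all tested genes 8.07% were called higher and 8.76% lower at 72h.

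The 72h call of *Irgm1* was lost without Kaede-green 72h replicate 1 (0.53) or 3 (0.58), or without Kaede-red 72h replicate 1 (0.61) or 2 (0.61). It was also lost with the share of *Rn45s* as a covariate (0.25, adjusted p = 0.870), in a range over all alternatives of 2.96e-05 to 0.870.

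*Iigp1* measured 13.8, 23.1, 27.5 and 23.1 CPM in Kaede-green 72h and 31.0, 33.6, 28.8 and 37.0 in Kaede-red 72h. Its Kaede-red libraries were all above its Kaede-green libraries, with Kaede-green replicate 1 the lowest. The difference was 0.57 (standard error 0.23, adjusted p = 0.0875, range over all alternatives 5.98e-04 to 0.997). It was called with no filter (0.72), with at least 10 counts in every library (0.59) and with the replicate block (0.60). *Irgm1* and *Iigp1* were thus 2 of 9 GTPases whose libraries did not overlap in this direction, against 13% of the tested genes.

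*Irgm2* measured 25.1, 18.9, 28.2 and 32.7 CPM in Kaede-green 72h and 38.1, 37.4, 38.0 and 32.3 in Kaede-red 72h. Its groups met at replicate 4, which was the highest green and the lowest red library. The difference of 0.47 had an adjusted p of 0.0953, and *Irgm2* was called without Kaede-green 72h replicate 4 (0.61, adjusted p = 0.0468, range over all alternatives 1.74e-04 to 0.894) and with at least 10 counts in every library (0.49).

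Values of the GBPs had both signs at 72h, as did those of the IRGs. *Gbp2* measured 125, 77.7, 58.1 and 95.9 CPM in Kaede-green and 138, 114, 106 and 138 in Kaede-red cells, a difference of 0.48 (adjusted p = 0.154) that was called with no filter (0.63). The Kaede-green libraries of *Gbp2* spread widely, and replicate 1 reached into the Kaede-red range. *Gbp5* stood at 0.27 and *Gbp7* at 0.24, while *Gbp3* stood at -0.14. Of the remaining IRGs, *Igtp* stood at 0.35 and *Tgtp2* at -0.04.

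In all, 7 of the 9 values were positive at 72h, and all 9 without a TMM factor. The median of the GTPases was 0.35, and relative to the median of all genes it lay at 0.31 under TMM, 0.30 without it and 0.31 under RLE. Without TMM the median of all genes moved to 0.68 and 8 of the 9 GTPases were called higher, beside 3318 of the 9642 tested genes. With the *Rn45s* share as covariate the median of the GTPases was 0.02 and 0 were called. That setting called 27 of the 9642 tested genes higher and 75 lower.

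GTPases outside the 9 divided at 72h, with 2 of 20 called higher and 1 lower (median 0.08). *Gbp10* (1.09, adjusted p = 0.00441) and *Gbp6* (1.05, adjusted p = 0.00185) rose, while *Mx2* fell by 1.46 (adjusted p = 1.83e-05), and none of the 3 changes sign without a TMM factor. The calls of *Gbp10* and *Gbp6* were lost with the *Rn45s* share as covariate (0.47 and 0.35).

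Interferon receptors and signalling gave 5 of 23 genes called higher in Kaede-red cells at 72h and 0 lower, among them *Tyk2* (1.26), *Stat3* (0.94) and *Jak1* (0.79). Other targets of interferon-γ were mixed, 6 higher and 4 lower of 24, with *Icam1* at 1.46 and *Il18bp* at 1.34. So were the antiviral genes, 6 higher and 2 lower of 24, where *Oas3* rose by 0.99 and *Isg15* fell by 0.92. Inflammasome partners gave 0 higher and 4 lower of 8 in Kaede-red cells, with *Casp1* at -1.05; *Aim2* stands in this list and among the interferon-γ targets and is counted in both. The ATG conjugation partners gave 2 higher and 2 lower of 10, where *Gabarapl2* fell by 1.55 and *Map1lc3b* by 0.90. With the *Rn45s* share as covariate every call given above with a value was lost: *Tyk2* (0.86), *Stat3* (0.30), *Jak1* (0.47), *Icam1* (1.35), *Il18bp* (0.67), *Oas3* (0.49), *Isg15* (-0.73), *Casp1* (-0.64), *Gabarapl2* (-0.80) and *Map1lc3b* (-0.74). With that covariate 27 of all 9642 tested genes were called higher and 75 lower. Without a TMM factor the calls of *Isg15* (-0.31), *Casp1* (-0.40) and *Map1lc3b* (-0.27) were lost. The call of *Aim2* (-0.93) held in 6 of 9 other settings and in 15 of 16 fits with a library left out. Among its losses were those without a TMM factor (-0.27) and with no filter (-0.77).

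**Figure D4:**
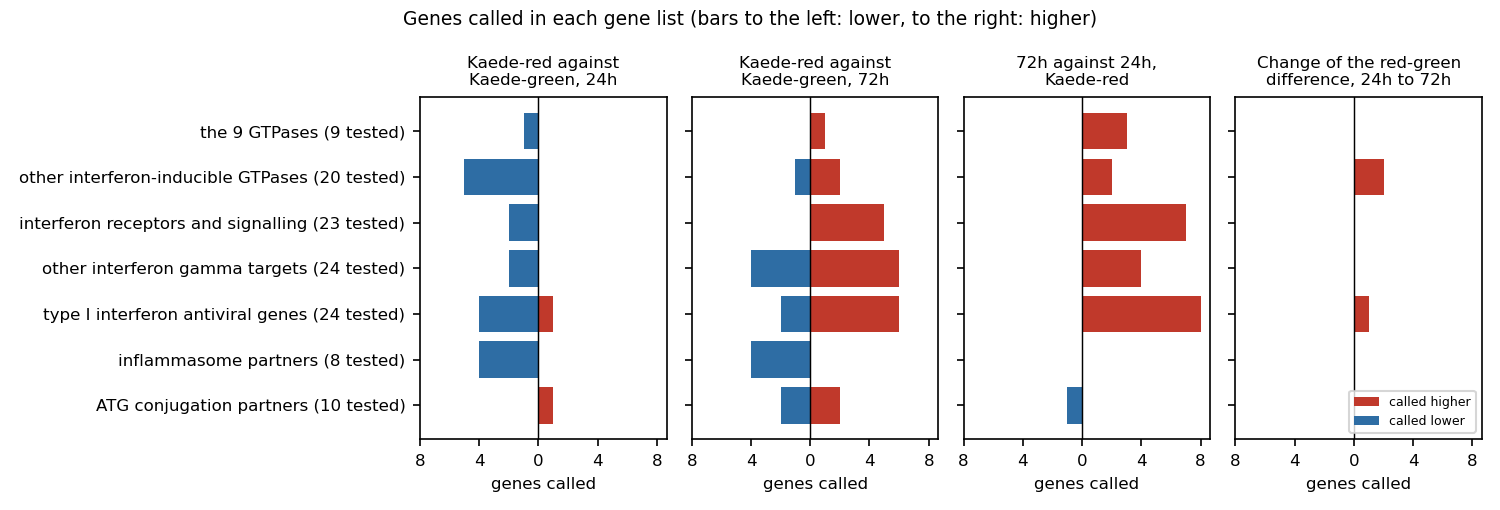
Number of genes called higher and lower in each gene list in 4 comparisons, under TMM scaling. Without a TMM factor 5 of the 9 GTPases are called higher and 0 lower in Kaede-red cells at 24h, beside 4570 and 77 of all 9642 tested genes.

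The lists differ in size, so the bars are counts and not shares: in Kaede-red cells over time they stand for 3 of 9 GTPases, 8 of 24 antiviral genes and 7 of 23 signalling genes called higher, where 4.91% of all tested genes were. Bars to the left dominate at 24h, bars to both sides appear at 72h, and in Kaede-red cells over time nearly all point to the right. The panel for the change of the difference holds only GTPases outside the 9 and an antiviral gene.

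Averaged over both times the opposite signs largely cancelled. *Iigp1* measured 37.3, 23.3, 29.9 and 31.8 CPM in Kaede-green 24h and 60.3, 36.1, 29.5 and 30.2 in Kaede-red 24h, beside the 72h values above. Kaede-red 24h replicate 1 was the highest library of all. *Iigp1* rose by 0.46 in Kaede-red cells over both times (standard error 0.16, adjusted p = 0.0406) and was the only GTPase of the 9 called higher, with 0 called lower, where 9.96% of the tested genes were higher and 10.3% lower. The other 8 ran from -0.33 (*Gbp3*) to 0.26 (*Irgm1*), with *Igtp* at 0.00.

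The call of *Iigp1* over both times was lost without Kaede-green 24h replicate 2 (0.43) or 3 (0.45), Kaede-red 24h replicate 1 (0.33), Kaede-green 72h replicate 1 (0.38) or 2 (0.46), or Kaede-red 72h replicate 1 (0.48), 2 (0.46) or 4 (0.43). DESeq2 (0.43, adjusted p = 0.0547) and the RLE factors (0.43) did not call it, and with the *Rn45s* share as covariate the value was -0.04, in a range of adjusted p from 2.32e-06 to 0.982.

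The median of the 9 GTPases over both times was -0.09, and relative to all genes -0.14 under TMM, -0.15 without TMM and -0.15 under RLE, with 2 of 9 above the median of all genes each time. Without TMM all 9 values were positive and 9 were called higher, beside 5889 of the 9642 tested genes, while the median of all genes moved to 0.82. Among the other GTPases 2 of 20 were called higher and 7 lower, with *Mx2* at -1.32 and *Gbp10* at 0.94 (0.38 and not called with the *Rn45s* share as covariate). The remaining lists gave 3 higher and 1 lower of 23 for signalling, 4 and 4 of 24 for other interferon-γ targets, 3 and 5 of 24 for antiviral genes, 0 and 7 of 8 for inflammasome partners and 1 and 2 of 10 for ATG conjugation. Among the signalling genes the calls of *Stat3* (0.48) and *Usp18* (-0.38) each held in only 4 of 16 fits with a library left out.

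The next comparisons follow each Kaede fraction from 24h to 72h. They share their libraries with the comparisons above, so the values are given side by side and not as separate evidence.

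In Kaede-green cells none of the 9 GTPases was called between 24h and 72h. Of all tested genes 0% were called higher and 0% lower by edgeR, with 835 genes at unadjusted p under 0.05, while DESeq2 called 12 and edgeR with no filter 37. Values of the 9 ran from -0.46 (*Iigp1*, adjusted p = 0.620) to 0.21 (*Gbp3*). Their median was -0.16, and -0.19 relative to all genes under TMM against -0.20 both without TMM and under RLE. Only *Gbp3* and *Gbp5* were positive, joined without TMM by *Gbp2* (0.03) and *Irgm2* (0.17). Every other list had 0 genes called, with medians of -0.21 for the other GTPases, 0.03 for signalling, -0.19 for other interferon-γ targets and -0.15 for antiviral genes.

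In Kaede-red cells the GBPs *Gbp2* and *Gbp5* and the regulator *Irgm2* rose from 24h to 72h. The libraries given above put *Gbp2* at 39.8 to 75.2 CPM at 24h and 106 to 138 at 72h. *Gbp5*, at 10.1 to 27.6 CPM at 24h, measured 49.0, 35.4, 32.5 and 41.7 at 72h, and *Irgm2*, at 32.3 to 38.1 at 72h, had measured 23.1, 22.1, 20.1 and 17.9 at 24h. None of the 3 genes overlapped between times. Myeloid markers summed to 1032 CPM at 24h and 1541 at 72h in the same libraries, with 3 of 10 called higher, and fibroblast markers to 29.2 and 16.9, with 1 called lower. *Gbp2* rose by 1.13 log2 (2.18 times, standard error 0.23, adjusted p = 0.00296), *Gbp5* by 1.11 (2.15 times, standard error 0.25, adjusted p = 0.00515) and *Irgm2* by 0.81 (1.75 times, standard error 0.19, adjusted p = 0.00773).

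So 3 of the 9 GTPases were called higher and 0 lower, where 4.91% of the tested genes were higher and 3.76% lower. These all-gene calls, 836 in all, fell to 287 without Kaede-red 72h replicate 1, 294 without Kaede-red 24h replicate 3, 328 without Kaede-red 24h replicate 4 and 395 without Kaede-red 72h replicate 4. Counted down from the most positive log2 fold change, *Gbp2* and *Gbp5* took ranks 153 and 163 of 9642. The call of *Gbp2* held under all 25 alternatives, left-out libraries included (adjusted p from 1.15e-05 to 0.0413). Those of *Gbp5* (0.88, adjusted p = 0.0637, range 4.18e-05 to 0.0637) and *Irgm2* (0.70, adjusted p = 0.0824, range 2.93e-04 to 0.0824) were lost only with the *Rn45s* share as covariate.

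The remaining members except *Iigp1* stood between these and 0. *Gbp3* stood at 0.60 (adjusted p = 0.0959, range over all alternatives 0.0341 to 0.481) and *Irgm1* at 0.54 (adjusted p = 0.0689, range 0.0264 to 0.390). Both were called without Kaede-red 24h replicate 1 (0.80 and 0.66). *Gbp3* was also called with no filter (0.68), and *Irgm1* in DESeq2 (0.49), with at least 10 counts in every library (0.48) and with only the groups compared (0.54). *Gbp7* stood at 0.49, *Igtp* at 0.44 and *Tgtp2* at 0.16. *Iigp1* alone was negative, at -0.26, and without Kaede-red 24h replicate 1 it was 0.04.

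Libraries did not overlap between 24h and 72h for 5 of the 9 GTPases, *Gbp2*, *Gbp3*, *Gbp5*, *Irgm1* and *Irgm2*, against 11.8% of the tested genes in that direction. The median of the 9 was 0.54, with 8 positive under every scaling, and relative to all genes it lay at 0.55 under TMM, 0.54 without TMM and 0.55 under RLE.

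Related genes were counted in the same comparison. The other GTPases gave 2 called higher and 0 lower of 20, *Gvin1* and *Gm4070* (both 0.84, adjusted p = 0.00998), which have equal counts in all 16 libraries and count as 1 measurement. That call was lost without Kaede-red 72h replicate 4 (0.71). Signalling genes gave 7 higher and 0 lower of 23, including *Stat3* (1.04). Other interferon-γ targets gave 4 higher and 0 lower of 24, including *Tapbp* of antigen loading (0.80). Antiviral genes gave 8 higher and 0 lower of 24, including the RNA sensors *Ifih1* (0.85) and *Ddx58* (0.78). By contrast the inflammasome partners gave 0 and 0 of 8, and the ATG conjugation partners 0 higher and 1 lower of 10. With the *Rn45s* share as covariate the calls of *Gvin1* (0.72), *Stat3* (0.78), *Tapbp* (0.69), *Ifih1* (0.69) and *Ddx58* (0.65) were lost. That setting called 77 of the 9642 tested genes higher and 33 lower.

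The test of whether the red-green difference changed from 24h to 72h gave positive values for all 9 GTPases, though without TMM *Iigp1* was -0.04. None passed, and among all genes 0.436% were called higher and 0.332% lower by edgeR, with 1471 genes at unadjusted p under 0.05, while DESeq2 called 290. *Gbp2* came closest at 1.23 (standard error 0.33, adjusted p = 0.0620), followed by *Irgm2* at 0.83 (adjusted p = 0.133) and *Gbp5* at 1.02 (adjusted p = 0.156). *Irgm1* stood at 0.73, *Igtp* at 0.69, *Gbp7* at 0.65, *Gbp3* at 0.39, *Tgtp2* at 0.38 and *Iigp1* at 0.21.

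For *Gbp2* this change did pass in DESeq2 (1.20, adjusted p = 0.0294), with no filter (1.29), with at least 10 counts in every library (1.13), with the replicate block (1.32, adjusted p = 0.0128), and without Kaede-red 24h replicate 1 (1.40, adjusted p = 0.0323) or Kaede-green 72h replicate 1 (1.43, adjusted p = 0.0400), in a range over all alternatives of 0.00782 to 0.154. The median of the 9 was 0.69, and relative to all genes 0.75 under TMM, 0.76 without TMM and 0.76 under RLE. Of the other GTPases, *Gvin1* and its equal *Gm4070* passed (1.18, adjusted p = 0.0483), but the call held in only 3 of the 16 fits with a library left out, those without Kaede-green 24h replicate 4, Kaede-red 24h replicate 2 or Kaede-red 72h replicate 3. In the other 13 fits the value ran from 1.04 to 1.28. Antiviral genes gave 1 called higher of 24, *Ifit1* (1.33, adjusted p = 0.0483), which held only without Kaede-red 24h replicate 1 or Kaede-green 72h replicate 4, ran from 1.12 to 1.43 in the other 14 fits, and was called in 4 of 8 other settings. The lists of signalling, other interferon-γ targets, inflammasome and ATG conjugation partners gave 0.

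**Figure D5:**
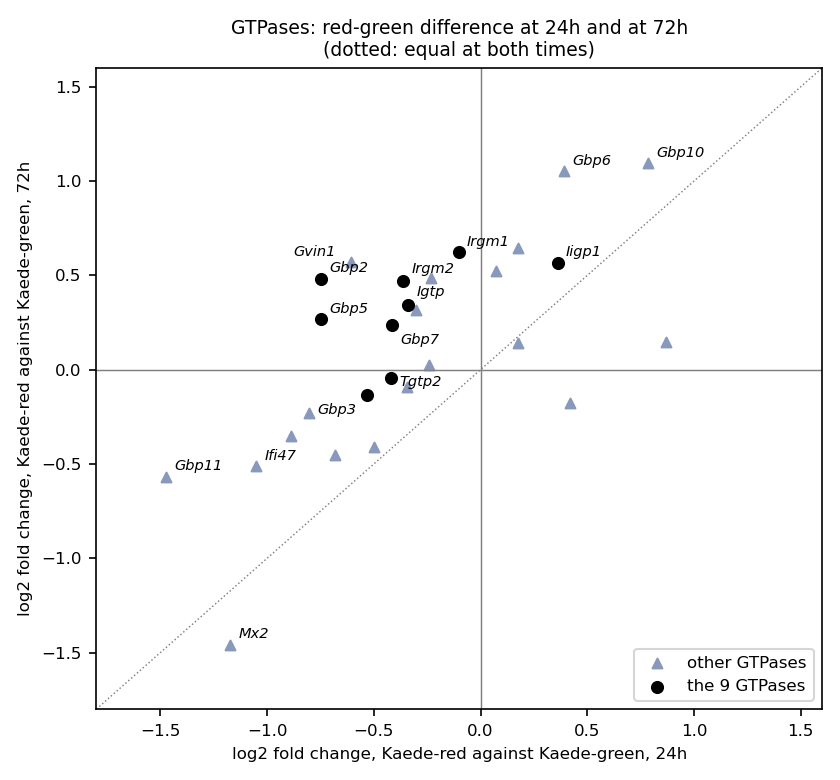
Red-green log2 fold change of the GTPases at 24h and at 72h under TMM scaling, the 9 in black and the others as triangles. All 9 lie above the dotted line of equal difference; without a TMM factor *Iigp1* falls just below it.

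Under TMM scaling the plot places *Gbp2*, *Gbp5*, *Gbp7*, *Irgm1*, *Irgm2* and *Igtp* on the side that is negative at 24h and positive at 72h, whereas without a TMM factor these 6 are positive at both times. *Iigp1* is positive at both times, and *Gbp3* and *Tgtp2* are negative at both with TMM and positive without it. *Mx2*, outside the GBP and IRG families, is far down at both times with TMM. At 24h its call was lost without a TMM factor. *Gbp6* and *Gbp10*, called higher at 72h but not at 24h, have positive values at both times.

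Read across groups, the order of levels differs by gene. *Gbp2* was highest in Kaede-red 72h (124 ± 16.4 CPM, mean and standard deviation), then Kaede-green 24h (95.6 ± 18.7), Kaede-green 72h (89.2 ± 28.4) and Kaede-red 24h (56.9 ± 19.3). *Gbp5* ran Kaede-red 72h (39.6 ± 7.33), Kaede-green 72h (33.2 ± 8.44), Kaede-green 24h (30.6 ± 7.53) and Kaede-red 24h (18.5 ± 7.61). For both genes neighbours in this order overlap, and only Kaede-red 24h and Kaede-red 72h, or for *Gbp2* also Kaede-red 24h and Kaede-green 24h, stand apart.

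*Gbp3* was highest in Kaede-green 72h (60.7 ± 13.6), then Kaede-red 72h (55.0 ± 6.45), Kaede-green 24h (52.2 ± 14.01) and Kaede-red 24h (36.2 ± 12.8). *Gbp7* stood at 27.5 ± 5.77 in Kaede-red 72h, 26.1 ± 7.72 in Kaede-green 24h, 23.5 ± 2.50 in Kaede-green 72h and 19.6 ± 2.05 in Kaede-red 24h. Neighbouring groups overlap for both.

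Of the regulators, *Irgm1* had a Kaede-red 72h level (55.4 ± 2.76) apart from Kaede-green 24h (41.0 ± 7.51), Kaede-red 24h (38.1 ± 7.93) and Kaede-green 72h (35.9 ± 5.59), which overlap. *Irgm2* followed with 36.5 ± 2.80 in Kaede-red 72h, 26.7 ± 4.51 in Kaede-green 24h, 26.2 ± 5.79 in Kaede-green 72h and 20.8 ± 2.30 in Kaede-red 24h. Its Kaede-red 72h libraries stand apart from both 24h groups but meet Kaede-green 72h. *Igtp*, found on the endoplasmic reticulum, ran 49.5 ± 6.65 in Kaede-red 72h, 46.2 ± 3.07 in Kaede-green 24h, 39.0 ± 7.88 in Kaede-green 72h and 36.4 ± 5.72 in Kaede-red 24h, all neighbours overlapping.

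The effectors had other orders. *Iigp1* was highest in Kaede-red 24h (39.0 ± 14.5), then Kaede-red 72h (32.6 ± 3.52), Kaede-green 24h (30.6 ± 5.79) and Kaede-green 72h (21.9 ± 5.74), and Kaede-green 72h lies below both Kaede-red groups without overlap. *Tgtp2* was highest in Kaede-green 24h (99.6 ± 14.6), then Kaede-green 72h (85.7 ± 6.25), Kaede-red 72h (83.2 ± 5.23) and Kaede-red 24h (74.5 ± 14.7), with overlap between all neighbours.

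Across the 16 libraries the GTPases varied together to differing degrees. The 36 pairs had Pearson correlations of log2 CPM from -0.28 (*Gbp3* with *Iigp1*) to 0.93 (*Gbp2* with *Gbp5*), with a median of 0.49. After the mean of each group was taken out, *Gbp2* with *Gbp5* remained the closest pair (0.86), the median was 0.33, and *Gbp7* with *Irgm2* was lowest (-0.56). No correlation of *Iigp1* was above 0.41 across the 16 libraries, and within groups its highest was 0.49, with *Gbp7*.

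The genes whose levels ran most like the mean of the 9 were *Samhd1* (0.934), *Adgre5* (0.927), *Tagln2* (0.920), *Cd177* (0.915) and *Usp25* (0.901). *Samhd1* is itself an interferon-inducible antiviral enzyme that hydrolyses nucleotides, and *Adgre5* encodes the leukocyte adhesion receptor CD97. These 5 were picked from all tested genes for their likeness, so the correlations are the highest of many.

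The genes upstream of the GTPases set their levels in context. *Ifng* itself was near absence, with 0, 0.136, 0 and 0.0105 CPM in Kaede-green 24h, Kaede-red 24h, Kaede-green 72h and Kaede-red 72h. Both chains of its receptor were present, *Ifngr1* at 36.0, 28.1, 35.5 and 31.8 CPM and *Ifngr2* at 16.1, 21.2, 18.1 and 19.9 in the same order. Among the interferon regulatory factors, *Irf1* stood at 44.6, 32.7, 45.6 and 50.2 CPM and *Irf8* at 19.5, 23.0, 22.4 and 32.9. By these means *Irf1*, like *Gbp5*, was lowest in Kaede-red 24h and highest in Kaede-red 72h, which *Irf8*, *Ifngr1* and *Ifngr2* were not. Its means in the Kaede-green groups lay close together (44.6 and 45.6 CPM), and a link between the genes was not tested.

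Other readouts of the pathway are given beside the GTPases. The feedback inhibitor *Socs1* stood at 12.6, 6.03, 7.46 and 7.68 CPM in Kaede-green 24h, Kaede-red 24h, Kaede-green 72h and Kaede-red 72h. *Cxcl9* stood at 11.4, 12.7, 13.8 and 24.8, *Cxcl10* at 124, 61.1, 87.5 and 85.2, and *Cd274*, which encodes the checkpoint ligand PD-L1, at 45.3, 43.6, 36.3 and 45.2.

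Markers of other cell types, among them types that the sort for CD45+ TER119- NK1.1- cells is meant to remove, were summed beside the GTPases, and their part in the result was not tested. Fibroblast markers (4 of 7 tested, *Col3a1* highest) summed to 46.9, 29.2, 49.8 and 16.9 CPM in Kaede-green 24h, Kaede-red 24h, Kaede-green 72h and Kaede-red 72h, and all 4 were called lower in Kaede-red cells at 72h, where *Irgm1* rose. Endothelial markers (3 of 5 tested, *Kdr* highest) summed to 13.6, 21.1, 14.1 and 30.9, with 2 called higher in Kaede-red cells at 72h. Of the myeloid markers, 5 of 10 were called higher and 0 lower in Kaede-red cells at 72h, although their sums there were close. Neutrophil markers (1 of 10 tested) summed to 8.47, 9.58, 10.6 and 17.9, of which *Csf3r* made up 16.3 in Kaede-red 72h and was called higher there than in either Kaede-red 24h or Kaede-green 72h, and *Ngp* was at 0 throughout.

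Lymphoid and other markers had lower sums than the myeloid markers in every group. T and NK cell markers (3 of 15 tested, *Gzmb* highest) summed to 6.54, 7.64, 6.07 and 8.67 CPM in Kaede-green 24h, Kaede-red 24h, Kaede-green 72h and Kaede-red 72h, and dendritic cell markers (3 of 9 tested, *Fscn1* highest) to 8.28, 7.69, 11.6 and 9.77. Group means reached at most 1.17 for B cell markers (1 of 6 tested, *Cd79b* highest), 1.86 for epithelial markers (0 of 6 tested, *Cdh1* highest) and 7.02 for erythroid markers (2 of 6 tested, *Hba-a1* highest).

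Some GTPase counts carry an uncertainty of assignment, since the strand setting and the handling of reads with several matches are not given in the sources used here. *Irgm2* and *Igtp* overlap on the same strand, and *Tgtp2* overlaps *Olfr56*, *Gbp2* overlaps *Mir6381* and *Gbp7* overlaps *Gm43802*. *Tgtp2* and its near copy *Tgtp1* correlated at 0.855, with no library at equal counts.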

How the data were processed

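The counts per gene were made by the authors and deposited: reads went through Trim Galore and FastQC, HISAT2 placed them on mm10, and featureCounts made the table (versions, strand setting and handling of reads with several matches are not given in the sources used here). Here R 4.3.3 with edgeR 4.0.16 filtered genes (filterByExpr, minimum count 10), scaled them by TMM and fitted all 16 libraries with 1 mean per group; the quasi-likelihood F test gave p-values, adjusted by Benjamini-Hochberg over 9642 genes, and a gene was called at adjusted p under 0.05. CPM are counts relative to the TMM library size. Standard errors are the absolute log2 fold change divided by the square root of F. The members and the gene lists were chosen with earlier results of these data known. Always named were the 9 GTPases and 10 genes of the interferon axis, of which 1 is not reported here; of each list, examples were taken from the 5 called genes of largest fold change in a comparison, and 5 genes by likeness. The 9 other settings were DESeq2 1.42.0 (Wald test), RLE factors, library size outside *Rn45s* without TMM, no filter, at least 10 counts in every library, only the groups compared, a replicate block, the *Rn45s* share as covariate, and Kaede-red libraries thinned to 691122 counts outside *Rn45s*; the last 2 were chosen after seeing the data. Each of the 16 libraries was also left out in turn. Promoters are RefSeq entries of build GRCm38.p6, and gene positions and exon lengths are from the GENCODE annotation of mm10. No library was left out of the values in the results.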

Additional observations from a re-analysis of the deposited data

Results flagged for a closer look

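Within each group of 4 libraries, the value of each GTPase that stood farthest from the rest was compared with the range (its gap to the nearest value over the whole range, Dixon's ratio, at its limit for 4 values). Of 36 groups checked, chance alone passes that limit in about 1 in 20, and 2 passed. *Gbp3* in Kaede-red 72h replicate 4 measured 64.6 CPM, above the other 3 libraries of its group at 50.9 to 52.9 (gap share 0.852). *Irgm2* in the same library measured 32.3 CPM, below the others at 37.4 to 38.1 (gap share 0.866).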

How the results depend on the processing

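Counts of GTPases called depended on the processing as follows, and the cause was not tested. In Kaede-red against Kaede-green at 24h, the 0 called higher became 5 with library size outside *Rn45s* and no TMM, and the 1 called lower became 0 there, 0 with no filter, 0 with at least 10 counts in every library, 2 with the replicate block (*Gbp5* at -0.82, adjusted p = 0.0274), 2 with the *Rn45s* covariate and 0 to 2 with a library left out. At 72h the 1 called higher became 8 without TMM, 3 with no filter, 3 with at least 10 counts, 2 with the replicate block (*Iigp1* at 0.60, adjusted p = 0.0429), 0 with the covariate and 0 to 2 with a library left out. Over both times the 1 called higher became 0 in DESeq2, 0 under RLE, 9 without TMM, 2 with at least 10 counts, 0 with the covariate, 0 with thinned Kaede-red libraries and 0 to 1 with a library left out. For Kaede-red cells over time the 3 called higher became 4 in DESeq2, 4 with no filter, 4 with at least 10 counts, 4 with only the groups compared, 1 with the covariate and 3 to 5 with a library left out. For the shift in that difference between times the 0 called higher became 1 in DESeq2, 1 with no filter, 1 with at least 10 counts, 1 with the replicate block (*Gbp2* at 1.32, adjusted p = 0.0128) and 0 to 1 with a library left out. Signs turned without TMM at 24h for *Gbp2* (0.14), *Gbp3* (0.32), *Gbp5* (0.13), *Gbp7* (0.44), *Igtp* (0.55), *Irgm1* (0.80), *Irgm2* (0.54), *Tgtp2* (0.48), *9930111J21Rik1* (0.073), *Mx1* (0.20), *Nlrc5* (0.23), *Rtp4* (0.11), *Isg20* (0.16) and *Casp4* (0.13); at 72h for *Gbp3* (0.54) and *Tgtp2* (0.61); and over both times for *Gbp2* (0.65), *Gbp3* (0.43), *Gbp5* (0.54), *Gbp7* (0.67), *Tgtp2* (0.55), *9930111J21Rik2* (0.14), *Mx1* (0.20), *9930111J21Rik1* (0.24), *Gm12250* (0.31), *Usp18* (0.39), *Aim2* (0.083), *Psme2* (0.17), *Isg20* (0.17), *Casp4* (0.12) and *Map1lc3b* (0.22). They also turned without TMM for *Gbp2* (0.034) and *Irgm2* (0.17) in Kaede-green cells over time and for *Iigp1* (-0.043) in the shift of the difference. With at least 10 counts *Irgm1* at 24h (0.043) and *Irgm2* in Kaede-green cells (0.048) turned. With no filter *Gbp3* (0.011) and *Tgtp2* (0.11) at 72h and *Gbp7* over both times (0.035) turned. With the *Rn45s* covariate the signs turned for *Iigp1* at 24h (-0.089), *Gbp2* (-0.23) and *Gbp5* (-0.40) at 72h, *Igtp* (-0.079), *Irgm1* (-0.075), *Irgm2* (-0.17), *Iigp1* (-0.036) and *Stat3* (-0.089) over both times, *Gbp5* in Kaede-green cells (-0.043) and *Tgtp2* in Kaede-red cells (-0.0100). *Igtp* over both times was -0.025 in DESeq2, -0.027 under RLE, -0.0038 with the replicate block and -0.037 with thinned libraries, where *Irgm2* was -0.032. With a library left out, values crossed 0 for *Irgm1* at 24h (-0.22 to 0.010), *Tgtp2* at 72h (-0.11 to 1.2e-04), *Igtp* (-0.075 to 0.051) and *Irgm2* (-0.028 to 0.13) over both times, *Gbp2* (-0.33 to 0.039), *Gbp5* (-0.064 to 0.23) and *Irgm2* (-0.14 to 0.10) in Kaede-green cells over time and *Iigp1* in Kaede-red cells over time (-0.37 to 0.04). Among all genes, 309 higher and 415 lower calls at 24h became 4570 and 77 without TMM and 88 and 118 with the covariate. At 72h 778 and 845 became 3318 and 305 without TMM and 27 and 75 with the covariate. Over both times 960 and 990 became 5889 and 234 without TMM, and 51 and 105 with the covariate. With at least 10 counts only 3084 genes were tested. Of these, 653 were called higher at 72h, 678 over both times and 470 in Kaede-red cells over time, and 301 lower at 24h. With no filter 21040 genes were tested, with 1039 called higher at 72h and 526 in Kaede-red cells over time. In Kaede-green cells over time the 0 calls became 12 in DESeq2 and 37 with no filter. In Kaede-red cells over time 473 and 363 became 209 and 351 without TMM, 374 and 427 under RLE, 77 and 33 with the covariate, and 1604 in all with only the groups compared. For the shift of the difference 42 and 32 became 8 and 97 without TMM, 24 and 10 with the covariate, and in all 290 in DESeq2, 216 with no filter, 161 with at least 10 counts and 164 with the replicate block. With a library left out, all-gene calls ran from 502 to 769 at 24h, 1148 to 1910 at 72h, 1583 to 2087 over both times, 0 to 2 in Kaede-green cells over time, 287 to 1109 in Kaede-red cells over time and 2 to 155 for the shift of the difference (2 without Kaede-red 24h replicate 3, 5 without replicate 4). Kaede-green and Kaede-red libraries of equal replicate number correlated at -0.02 to 0.15 after group means were removed, and not every library correlated best with its own number, so the pairing was not used. Limits: each group has 4 libraries, and every Kaede-red library had a lower *Rn45s* share than every Kaede-green library of its time. The shares were at most 84.9% against at least 86.5% at 24h, and at most 73.8% against at least 79.0% at 72h. At each time the Kaede-red group also had the higher median count outside *Rn45s*, with libraries overlapping at 24h but not at 72h. Effects of Kaede colour, depth and *Rn45s* share cannot be told apart.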
